A study of Mus musculus with 22 samples.

Results

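Livers of formerly germ-free mice that had received the gut microbes of Taconic mice (GF_TAC, n = 5) were compared with livers of conventionally raised mice from the same vendor (TAC, n = 4). These 9 libraries were taken by their labels from the 22 of the series, and 11625 of 23909 named genes were tested, those that reached an RPKM of 1 in 4 or more of the 9 libraries. RPKM are reads scaled by transcript length and library size. Male C57BL/6 mice were used throughout. GF_TAC mice were germ-free hosts that were given cecal material of TAC mice, kept for 4 weeks and fasted for 16 h before the liver was taken. TAC mice were never germ-free and are labelled as fasted, with no hours given. The other groups, used here as another pair and as background, were germ-free hosts of Jackson cecal material (GF_JAX, n = 5, with the same 4 weeks and 16 h), conventional Jackson mice (JAX, n = 4) and germ-free mice without microbes (GF, n = 4). The labels give neither the vendor of the germ-free hosts nor their age, so the host line, a life without microbes before the transfer, and any difference in fasting cannot be told apart from the colonisation itself. Libraries are numbered within groups, with no statement that each came from its own animal, so the p-values rest on the scatter among these libraries, part of which may be technical.

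The liver receives the blood of the gut and thereby bacterial products and bile acids that bacteria have altered. Among the receptors that sense such compounds are CAR and PXR, which switch on cytochromes P450 for drugs and toxins, FXR, which senses bile acids, and the Toll-like receptors of resident macrophages. A fasted liver burns fatty acids under the receptor PPARα, makes glucose and ketone bodies, and secretes lipoproteins, albumin and clotting factors through the endoplasmic reticulum (ER), whose chaperones fold these proteins. A transfer into a germ-free host puts the donor's microbes into another animal, and the comparison with the donor's own kind asks which hepatic transcripts differ after it.

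The hepatocyte markers were abundant in all 9 libraries. Albumin (Alb) averaged 742 ± 111 in GF_TAC against 869.5 ± 99.6 RPKM in TAC (mean ± SD here and below, n = 5 and 4). The 10 markers summed to 4128 to 5443 RPKM in GF_TAC and to 5087 to 6398 RPKM in TAC. Depth, read from the steps of low values, was 2090000 to 3040000 counted reads in GF_TAC and 1850000 to 2440000 in TAC. Relative to library JAX 1 it was 1.12 ± 0.175 in GF_TAC and 0.956 ± 0.109 in TAC (SD; exact permutation test, two-sided, p = 0.159). Pearson r of log2 values was 0.969 to 0.981 within and 0.946 to 0.961 between the groups. Every pair of libraries within a group differed beyond counting error (over 7920 genes the smallest chi-square was 2.003 times its degrees of freedom). Alb, Apoa1 and Apoe lay near one ceiling that scaled with depth (coefficients of variation over the 22 libraries of 29.0%, 29.6% and 29.9%, and of 2.13%, 1.93% and 1.55% after scaling by depth). Differences of the most abundant genes, near 817 RPKM at the depth of JAX 1, may therefore be compressed. At the ceiling RPKM falls as depth rises. The lower Alb of GF_TAC, which is part of the lower marker sum, therefore cannot be told apart from the higher mean depth of GF_TAC. An exact 0 can be a failed estimate: Hmgcs1, an early enzyme of cholesterol synthesis, was listed at 0 in all 9 libraries and is not described.

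The libraries of the groups also differed in how RPKM depended on transcript length. The length slope of a library is the change of its log2(RPKM + 1), relative to each gene's mean, per doubling of transcript length over 7810 genes. It averaged -0.0765 ± 0.0299 in GF_TAC (SD, n = 5), with every library below 0, and 0.122 ± 0.0488 in TAC (n = 4), with every library above 0. The difference was -0.199 (exact permutation test, two-sided, p = 0.0159, the smallest p these groups allow). GF_JAX held both kinds, with replicates 1 and 4 above 0 and 2, 3 and 5 below. Within the 9 libraries the slope and the group therefore cannot be told apart. List counts and most of the genes described are given beside a fit over all 22 libraries and 5 groups with the length slope as a term, called here the slope-adjusted fit, in which the effect of the slope is estimated within groups and mostly rests on GF_JAX. Where it helps, the difference between the GF_JAX libraries of negative and of positive slope is given as well, without a test.

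**Figure D1:**
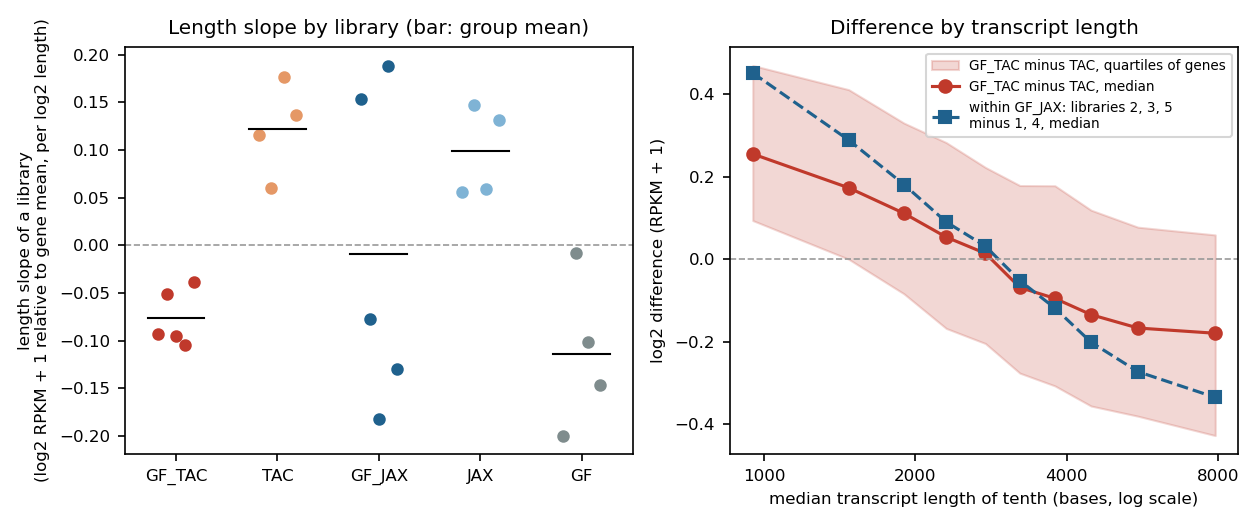
Left, length slope of each of the 22 libraries (log2 units per doubling of transcript length) by group, with bars at group means; all 5 GF_TAC libraries lie below 0 and all 4 TAC libraries above. Right, median difference of GF_TAC minus TAC (circles, band of quartiles) and of the negative-slope minus the positive-slope GF_JAX libraries (squares) for genes in 10 bins of transcript length on a log axis, where the circles fall to -0.18 and the squares to -0.33 in the longest bin.

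In the 9 libraries 4154 of 11625 genes passed an adjusted p of 0.05 (35.7%), 2045 of them higher (17.6%) and 2109 lower (18.1%) in GF_TAC. Every list count below is to be read against these shares. Differences are GF_TAC minus TAC on the log2(RPKM + 1) scale, which understates changes of low genes. A 2-fold change or more was seen in 232 genes that rose and 129 that fell. The libraries of both groups did not overlap in 27.6% of genes tested. Genes that rose had a median transcript length of 1974 bases and genes that fell 4113, against 2992 over the genes tested. Among 3701 genes with transcripts of up to 2239 bases 1075 rose and 208 fell, and among 3699 genes above 3897 bases 307 rose and 1119 fell. Of the called genes 87.8% had the same sign between the negative-slope and positive-slope GF_JAX libraries, against 74.0% of all genes tested. The slope-adjusted fit called 498 genes (4.28%), 227 higher (1.95%) and 271 lower (2.33%) in GF_TAC. Of these, 402 were called in the 9 libraries as well (197 higher and 205 lower), all with the same sign. The median difference over all genes was 0.021 in the 9 libraries and -0.016 in the slope-adjusted fit.

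**Figure D2:**
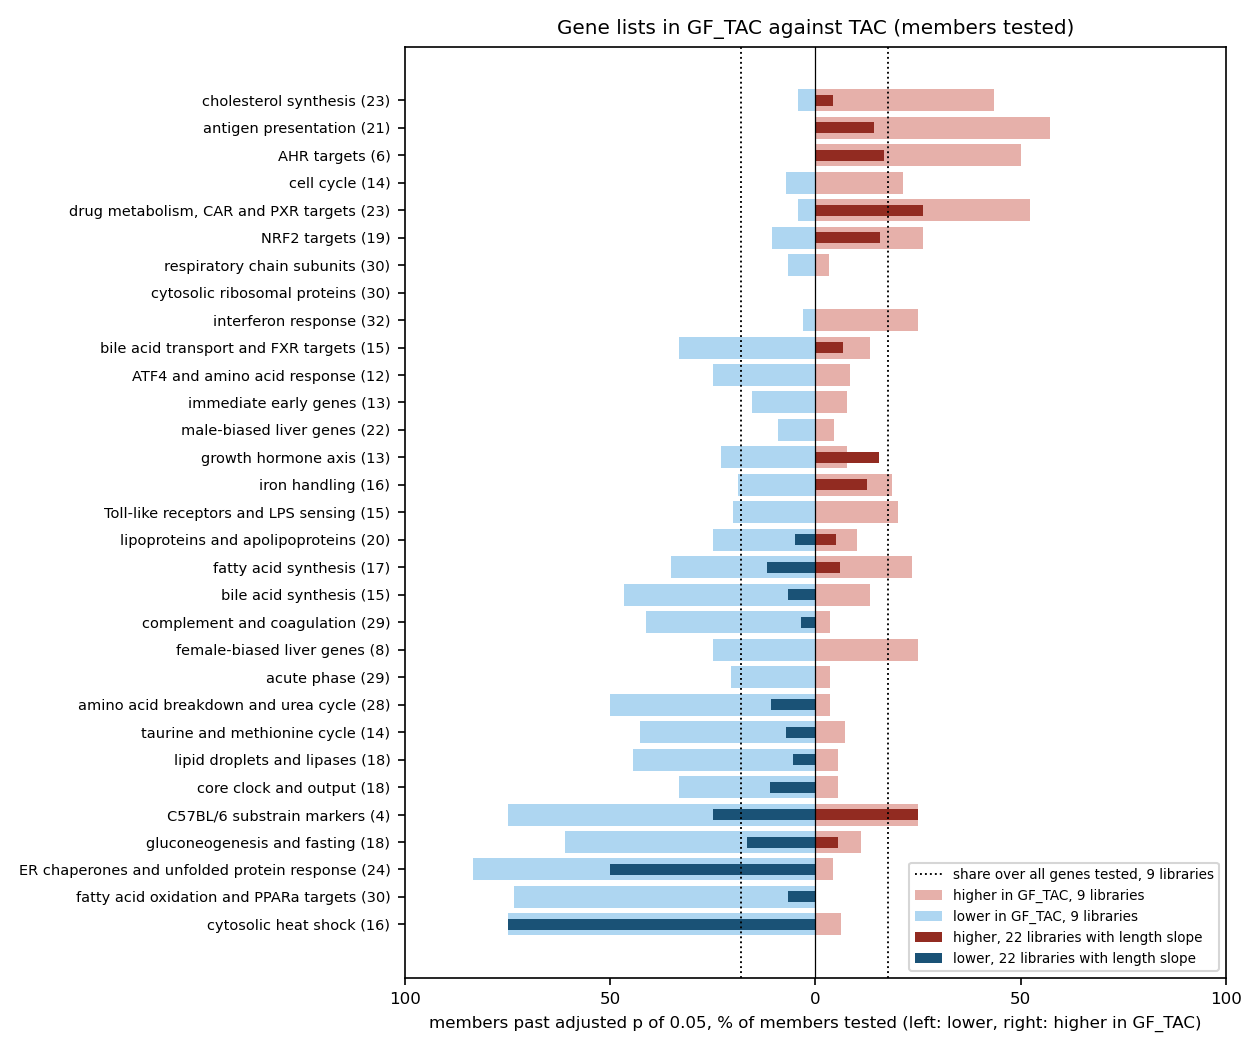
Share of the tested members (number in brackets) of 31 pathway lists that passed an adjusted p of 0.05, lower in GF_TAC to the left and higher to the right, in the 9 libraries (pale bars) and in the slope-adjusted fit over 22 libraries (dark bars). Dotted lines mark 18.1% lower and 17.6% higher over all genes tested; heat shock (12 of 16) and ER chaperone genes (12 of 24) kept the most lower calls under the slope term.

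Many detoxification genes controlled by CAR and PXR were higher in GF_TAC livers. Of 23 tested members of this list 12 rose and 1 fell (median 0.32, against 0.021 over all genes), and 6 rose and 0 fell in the slope-adjusted fit (limma; 0 lower at an unadjusted p under 0.05). Cyp2b10, the classic mouse target of CAR and an oxidase of drugs and steroids, had 201, 123, 288, 266 and 329.6 RPKM in the GF_TAC libraries, against 16.7, 12.9, 1.43 and 23.01 RPKM in the TAC libraries. Every GF_TAC library was above every TAC library (4.39 ± 0.57, SE; adjusted p = 0.000477; slope-adjusted 4.49, adjusted p = 0.00237). Cyp2c55, which oxidises fatty acids and steroids, had 29.4, 9.60, 31.4, 37.7 and 25.5 RPKM in GF_TAC, against 1.67, 2.20, 2.01 and 1.92 RPKM in TAC. The lowest GF_TAC library, replicate 2, was also the lowest for Cyp2b10 and Gstm3, and it still exceeded all TAC libraries (3.11, adjusted p = 0.000164; slope-adjusted 3.27, adjusted p = 0.000884). Gstm3, a glutathione transferase, had 186, 121, 287, 277 and 209 RPKM in GF_TAC, against 35.99, 40.9, 25.2 and 26.6 RPKM in TAC (2.67, adjusted p = 0.000126; slope-adjusted 2.32, adjusted p = 0.00229).

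Further cytochromes of the list rose less far. Cyp2c54 averaged 267 ± 24.9 in GF_TAC against 135 ± 11.4 RPKM in TAC (0.98, adjusted p = 9.10e-05; slope-adjusted 0.89, adjusted p = 0.00709). Cyp2c29 averaged 534 ± 48.3 in GF_TAC against 273 ± 61.1 RPKM in TAC (0.99, adjusted p = 0.000477; slope-adjusted 0.95, adjusted p = 0.0166). Cyp3a59 (1.11), Cyp2c50 (0.77), Cyp2c37 (0.64) and the carboxylesterase Ces2c (0.74) also rose, whereas the glucuronosyltransferase Ugt1a9 fell (-1.08, adjusted p = 0.0179). The main PXR-responsive oxidase, Cyp3a11, averaged 562 ± 76.9 in GF_TAC against 591 ± 69.2 RPKM in TAC and did not pass (-0.075, adjusted p = 0.614). Of the receptors, CAR itself (Nr1i3) was at 167 in GF_TAC against 133 RPKM in TAC and rose (0.32, adjusted p = 0.0116), and PXR (Nr1i2) did not pass (0.12, adjusted p = 0.312). The pseudogene Cyp2c53-ps was listed at 0 in all TAC libraries and averaged 7.19 ± 2.29 RPKM in GF_TAC (adjusted p = 3.78e-05). Members of the Cyp2b, Cyp2c, Cyp3a, Gstm and Gsta families have near-identical copies, and their reads may have been divided between copies.

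The same genes in the other groups are shown in the plot of detoxification genes. Cyp2b10 averaged 241 ± 80.95 RPKM in GF_TAC, 13.5 ± 9.07 in TAC, 229 ± 113 in GF_JAX, 11.7 ± 4.90 in JAX and 234 ± 82.8 in GF (SD). Both recipient groups and the germ-free group thus had high values, with overlapping ranges, and both conventional groups low ones. Gstm3 averaged 216 ± 68.4 RPKM in GF_TAC, 32.2 ± 7.52 in TAC, 154 ± 59.7 in GF_JAX, 33.5 ± 2.67 in JAX and 144 ± 68.3 in GF. In GF_JAX against JAX 9 members of the list rose and 1 fell, with Cyp2b10 at 4.07 (adjusted p = 0.00164) and Cyp2c55 at 2.45 (adjusted p = 0.00421).

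**Figure D3:**
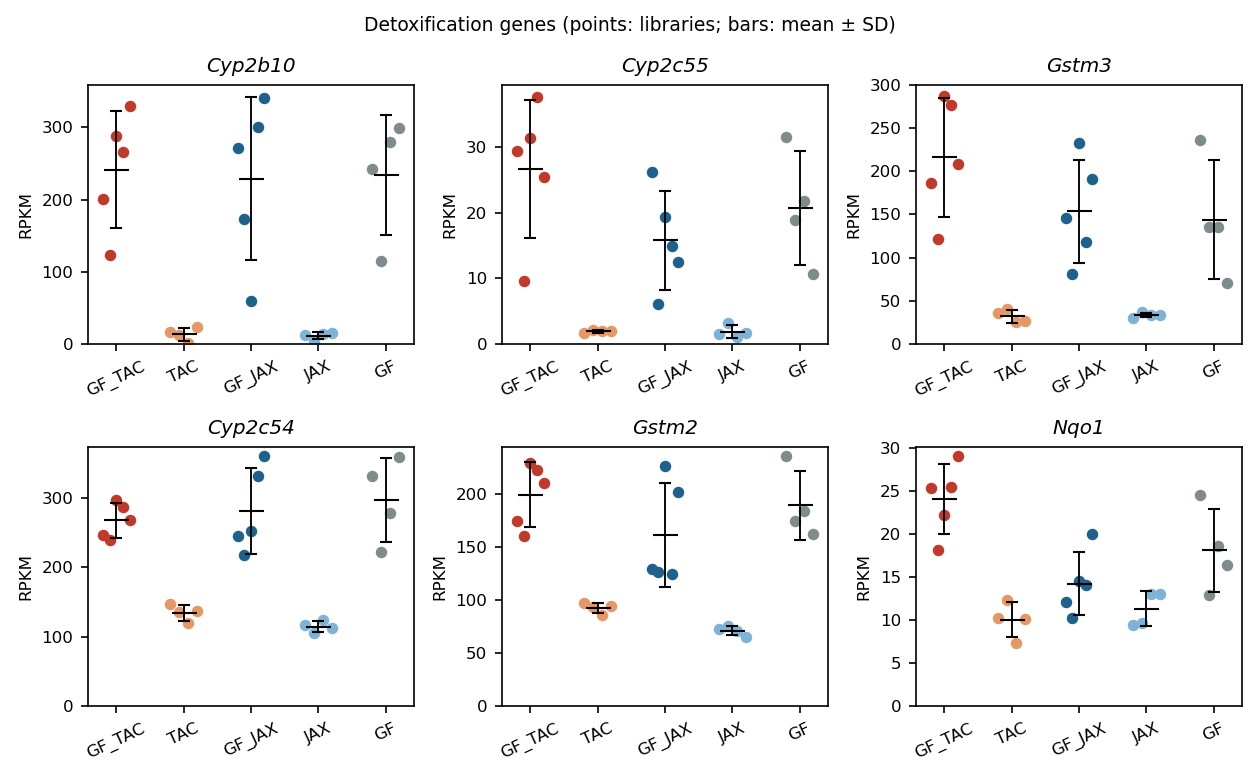
RPKM of 6 detoxification genes in every library of the 5 groups (points), with group mean ± SD (bars). Cyp2b10, Cyp2c55, Gstm3, Cyp2c54 and Gstm2 are higher in every GF_TAC library than in every TAC library and are also high in GF_JAX and GF; Nqo1 averages 24.1 RPKM in GF_TAC and 10.1 RPKM in TAC.

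Targets of the aryl hydrocarbon receptor (AHR), which senses aromatic compounds, and of NRF2, which answers oxidants, moved in part. Of 6 tested AHR targets 3 rose and 0 fell by limma (1 lower at an unadjusted p under 0.05), namely Nqo1, Cyp1a2 and Cyp1a1. Nqo1, a quinone reductase on both lists, had 25.4, 18.2, 22.2, 25.5 and 29.1 RPKM in GF_TAC, against 10.3, 12.4, 7.41 and 10.2 RPKM in TAC (1.18, adjusted p = 0.000477; slope-adjusted 0.94, adjusted p = 0.0195). Cyp1a2 averaged 437 ± 60.9 in GF_TAC against 266 ± 29.2 RPKM in TAC (adjusted p = 0.000987; slope-adjusted 0.47, adjusted p = 0.104). Cyp1a1 was low in both groups, at 1.88 ± 0.805 in GF_TAC against 0.648 ± 0.341 RPKM in TAC (adjusted p = 0.0286). Its libraries overlapped, and it had no call without TAC 3, TAC 4, GF_TAC 3, GF_TAC 4 or GF_TAC 5 (adjusted p = 0.0546 to 0.0836). Of 19 tested NRF2 targets 5 rose (3 in the slope-adjusted fit) and 2 fell (0 in that fit by limma, and 0 at an unadjusted p under 0.05). The risers were all conjugating or reducing enzymes, with Gstm2 at 199.6 ± 30.5 in GF_TAC against 92.8 ± 4.96 RPKM in TAC (1.08, adjusted p = 0.000160), Gsta2 at 1.47 and Gsta4 at 0.98 beside Gstm3 and Nqo1. The oxidant-responsive Txnrd1 (-0.42) and Gsr (-0.26) fell, and Hmox1 (-0.16, adjusted p = 0.463) and Gclc (0.03, adjusted p = 0.852) did not pass.

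Chaperone genes were lower in GF_TAC livers, both those of the ER and those of the cytosol. Of 24 ER chaperone and unfolded protein response genes 20 fell and 1 rose (median -0.43), and 12 fell and 0 rose in the slope-adjusted fit (limma; 21 lower and 0 higher at an unadjusted p under 0.05). Of 16 cytosolic heat shock genes 12 fell and 1 rose (median -0.54), again with 12 lower and 0 higher in the slope-adjusted fit (13 and 1 at an unadjusted p under 0.05). The list medians were also below 0 under TPM scaling, quantile normalization and a length correction.

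Some promoters of each set carry a known response element, a different one in each set. The lists hold genes chosen as members of the unfolded protein and heat shock responses. The elements are therefore frequent in them by choice, and their shares say nothing about the difference between the groups. The ER stress response element (CCAAT, any 9 bases and CCACG, read on both strands) was found in 39 of 32851 mouse promoters (0.119%; RefSeq, GRCm38.p6, 250 bases before to 50 after the start). Counted by gene, with a match at any start, it was found in 15 of 8784 genes tested (0.171%). Among the 21 ER genes that matched a promoter by symbol 9 had it (42.9%), namely Hspa5, Hsp90b1, Pdia6, Calr, Canx, Dnajc3, Creld2, Syvn1 and Derl3. None of 11 heat shock genes had it. The heat shock element (the triplets GAA, TTC and GAA with any 2 bases between them, or TTC, GAA and TTC, which is the same read on the other strand) was found in 198 promoters (0.603%). Counted by gene, it was found in 54 of the 8784 genes tested (0.615%). It was found in 4 of 11 heat shock genes (36.4%; Hsph1, Hspe1, Hspd1 and Chordc1) and in none of the 21 ER genes. A match is a description of these letters only. Of the genes with the ER stress element, Calr and Pdia6 did not pass in the 9 libraries, while Hspa5, Hsp90b1 and Dnajc3, printed here, fell. The 250 bases before the start are given 5′ to 3′ on the strand of the gene, with the ER stress element in capitals. That of Hspa5 is chr2:34771840-34772089 (plus strand), with the element beginning 65 bases before the start. That of Hsp90b1 is chr10:86705445-86705694 (minus strand), with elements beginning 212 and 107 bases before the start, the second one read on the opposite strand. That of Dnajc3 is chr14:118937682-118937931 (plus strand), with the element beginning 105 bases before the start.
Hspa5: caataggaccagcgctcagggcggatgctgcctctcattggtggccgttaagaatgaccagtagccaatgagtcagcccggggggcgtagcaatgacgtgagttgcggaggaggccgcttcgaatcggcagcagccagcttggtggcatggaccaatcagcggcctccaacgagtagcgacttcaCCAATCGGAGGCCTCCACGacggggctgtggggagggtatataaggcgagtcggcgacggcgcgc
Hsp90b1: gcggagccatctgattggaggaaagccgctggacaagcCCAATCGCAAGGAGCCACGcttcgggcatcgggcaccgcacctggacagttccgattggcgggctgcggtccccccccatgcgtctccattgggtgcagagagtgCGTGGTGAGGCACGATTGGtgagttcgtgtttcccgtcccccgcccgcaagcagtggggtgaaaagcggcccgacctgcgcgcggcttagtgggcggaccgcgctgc
Dnajc3: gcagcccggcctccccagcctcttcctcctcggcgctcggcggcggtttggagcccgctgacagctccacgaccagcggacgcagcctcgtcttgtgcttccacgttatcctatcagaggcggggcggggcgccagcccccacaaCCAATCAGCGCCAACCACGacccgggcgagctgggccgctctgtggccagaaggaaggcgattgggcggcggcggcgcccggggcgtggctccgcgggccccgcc

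Hspa5 (BiP), an abundant HSP70-type chaperone of the ER lumen, had 255, 230.3, 231, 274 and 231 RPKM in GF_TAC, against 375, 454, 392.02 and 415 RPKM in TAC. The groups were separated by a wide gap (-0.74 ± 0.078, SE; adjusted p = 0.000198; slope-adjusted -0.83, adjusted p = 0.000609), and the GF_JAX libraries of either slope differed by only 0.062. Hyou1, a large ER chaperone that exchanges the nucleotide of BiP, had 54.96, 46.6, 51.8, 55.7 and 54.1 RPKM in GF_TAC, against 91.4, 146, 122 and 116 RPKM in TAC (-1.14, adjusted p = 0.000169; slope-adjusted -0.96, adjusted p = 0.0108). Pdia4, a protein disulfide isomerase, averaged 123 ± 6.08 in GF_TAC against 200.3 ± 20.2 RPKM in TAC (-0.70, adjusted p = 0.000201; slope-adjusted -0.78, adjusted p = 0.000884). Hsp90b1, also called GRP94, averaged 219 ± 14.6 in GF_TAC against 305 ± 23.8 RPKM in TAC (-0.48, adjusted p = 0.000987; slope-adjusted -0.67, adjusted p = 0.00140). Dnajc3, a co-chaperone of BiP, averaged 74.2 ± 2.44 in GF_TAC against 90.3 ± 4.36 RPKM in TAC (-0.28, adjusted p = 0.00373; slope-adjusted -0.29, adjusted p = 0.0256). Creld2 (-1.10), Herpud1 (-0.51), Sdf2l1 (-0.54), the ER degradation gene Sel1l (-0.58) and the transcription factor Xbp1 (-0.23) fell as well. The riser was Sec61b, a short subunit of the ER translocon (0.59; slope-adjusted -0.0095, adjusted p = 0.971). Calr, Pdia6 and Magt1 did not pass in the 9 libraries.

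Hsph1 (HSP105), a cytosolic chaperone of the HSP110 class, had 26.7, 21.1, 17.5, 18.8 and 20.3 RPKM in GF_TAC, against 65.4, 66.5, 86.8 and 81.7 RPKM in TAC (-1.80 ± 0.13, SE; adjusted p = 3.78e-05; slope-adjusted -1.65, adjusted p = 0.000755). The highest GF_TAC library was far below the lowest TAC library. Hspa1b, the stress-inducible HSP70, had 29.9, 9.66, 7.64, 11.7 and 9.06 RPKM in GF_TAC, with replicate 1 well above the other four, against 59.9, 39.3, 53.6 and 59.6 RPKM in TAC (-2.04, adjusted p = 0.00104; slope-adjusted -2.02, adjusted p = 0.00709). Its near-identical copy Hspa1a was at 1.27 in GF_TAC against 2.38 RPKM in TAC and did not pass, and reads of the pair cannot be told apart. The co-chaperone Bag3 averaged 39.2 ± 4.33 in GF_TAC against 80.7 ± 11.99 RPKM in TAC (-1.02, adjusted p = 0.000214; slope-adjusted -0.90, adjusted p = 0.00643). Chordc1, a partner of HSP90, averaged 19.8 ± 3.28 in GF_TAC against 38.05 ± 0.761 RPKM in TAC (-0.92, adjusted p = 0.000331; slope-adjusted -1.02, adjusted p = 0.00709). The constitutive Hspa8 (-0.47) and Hsp90ab1 (-0.39) fell less far, and their master regulator Hsf1 did not pass (0.21, adjusted p = 0.0932). The small heat shock protein Cryab rose (19.4 in GF_TAC against 9.04 RPKM in TAC, 1.001; slope-adjusted 0.71, adjusted p = 0.118). Among 12 tested targets of ATF4, a related branch of the stress response, 1 rose and 3 fell. Trib3 averaged 24.8 ± 2.81 in GF_TAC against 13.5 ± 4.12 RPKM in TAC (0.86, adjusted p = 0.00291; slope-adjusted 0.91, adjusted p = 0.146). The fallers were Sesn2 (7.81 ± 1.29 in GF_TAC against 13.1 ± 2.91 RPKM in TAC), Fgf21 (-1.45) and the asparagine synthetase Asns (8.29 ± 8.87 in GF_TAC against 23.6 ± 13.5 RPKM in TAC). The call of Asns was lost without TAC 1, 3 or 4 or GF_TAC 1, 4 or 5 (adjusted p = 0.0694 to 0.107). None of the 12 passed the slope-adjusted fit by limma (1 higher and 4 lower at an unadjusted p under 0.05).

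The ER genes took another order in the Jackson pair. Hspa5 averaged 244 ± 19.5 RPKM in GF_TAC and 409 ± 34.2 in TAC, but 396 ± 51.6 in GF_JAX and 278 ± 10.8 in JAX, with 268 ± 27.2 in GF. In GF_JAX against JAX 10 of the 24 ER genes rose and 0 fell (limma; 20 and 0 at an unadjusted p under 0.05). The difference of the differences, (GF_TAC minus TAC) minus (GF_JAX minus JAX), was tested over 18 libraries. It was -1.24 for Hspa5 (adjusted p = 0.000271), -1.89 for Hyou1 (adjusted p = 0.000644), -1.16 for Pdia4 (adjusted p = 0.000615) and -1.02 for Hsp90b1 (adjusted p = 0.000644), and 19 of 24 members passed with a negative value. The 19 became 13 under TPM scaling or quantile normalization and 23 with the length slope as a term, again all negative, and 12 without JAX 3 or JAX 4 and 11 without TAC 2. No fit of the difference of differences had depth as a covariate, so a part of depth in these calls was not tested. Depth was 1340000 to 2830000 counted reads in GF_JAX and 2270000 to 3760000 in JAX. Within the Jackson pair alone the 10 became 3 under TPM scaling, 4 after quantile normalization or with the replicate block, 6 without a filter and 0 with relative depth as a covariate. They became 16 after the length correction and 18 with quality weights or in the fit of 22 libraries, with or without the slope term. They were 1 without JAX 1 or JAX 3, 0 without JAX 4, 6 without GF_JAX 2 and 5 without GF_JAX 5, and none fell in any of these fits. Of the heat shock genes 5 of 16 passed the difference of differences, all negative. They became 9 after the length correction or with the slope as a covariate and 8 with quality weights, and 8 negative and 1 positive without GF_JAX 2. Among the 5 were Hsph1 (-1.70, adjusted p = 0.00318) and Chordc1 (-1.20, adjusted p = 0.0171).

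**Figure D4:**
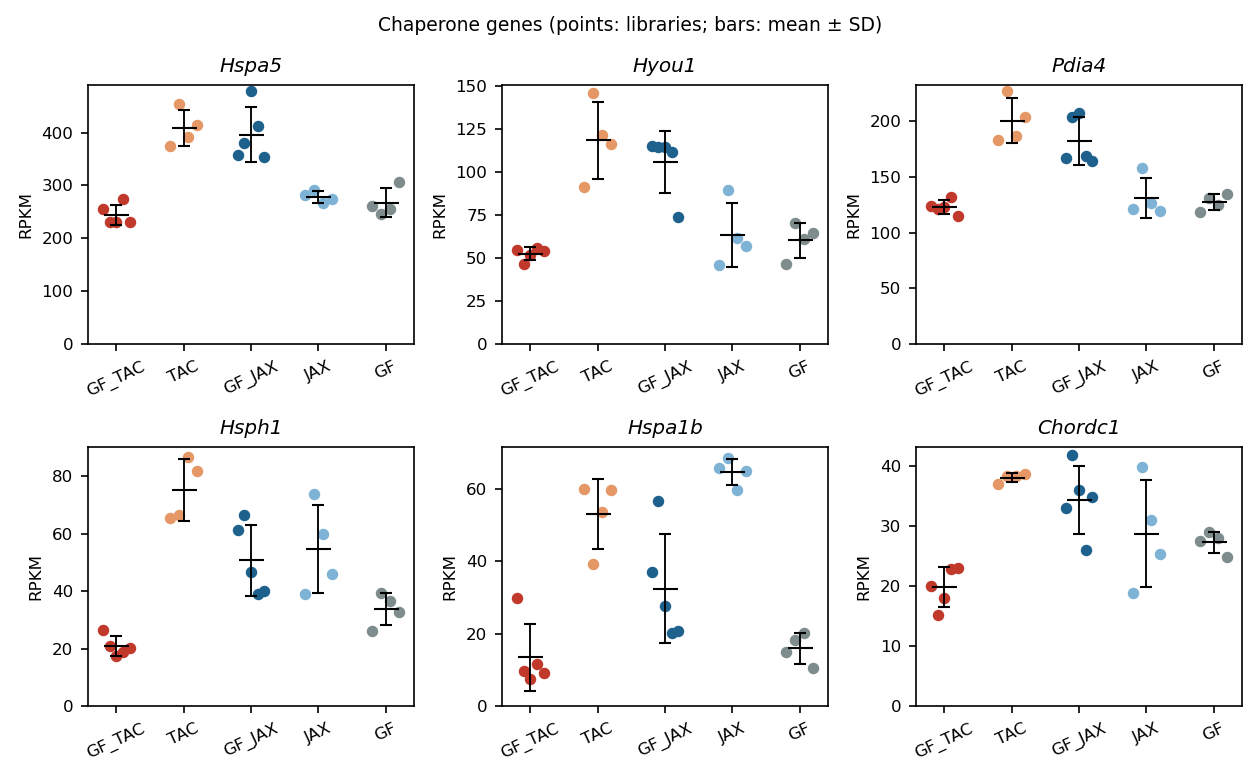
RPKM of 3 ER chaperone genes (top) and 3 cytosolic ones (bottom) in every library of the 5 groups, with group mean ± SD. All 6 are lower in every GF_TAC library than in every TAC library, and Hspa5 averages 396 RPKM in GF_JAX and 278 RPKM in JAX.

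Genes of fatty acid oxidation and other PPARα targets were lower in GF_TAC livers. Of 30 tested members 22 fell and 0 rose by limma (23 and 0 at an unadjusted p under 0.05; median -0.43), and the list median remained below 0 under each scaling tried. In the slope-adjusted fit 2 fell and 0 rose (14 and 0 at an unadjusted p under 0.05), with a median of -0.39. Hadha, of the mitochondrial trifunctional protein, had 134, 150.3, 144, 133 and 134 RPKM in GF_TAC, against 201, 191, 201 and 206 RPKM in TAC (-0.52, adjusted p = 0.000233; slope-adjusted -0.41, adjusted p = 0.0356). The 5 GF_TAC libraries were all below the 4 TAC libraries. Acadm, a dehydrogenase of medium-chain fatty acids, averaged 229 ± 8.92 in GF_TAC against 317 ± 22.1 RPKM in TAC (-0.46, adjusted p = 0.000599; slope-adjusted adjusted p = 0.0904). Cpt1a, which admits fatty acids to mitochondria, was at 111 in GF_TAC against 212 RPKM in TAC (-0.93; slope-adjusted -0.38, adjusted p = 0.155). Ehhadh, of peroxisomal oxidation, was at 173 in GF_TAC against 367 RPKM in TAC (-1.03). PPARα itself (Ppara) was at 52.2 in GF_TAC against 70.2 RPKM in TAC (-0.40). Angptl4 (-0.07, adjusted p = 0.543) and Fabp1 (-0.11, adjusted p = 0.442) did not pass. The negative-slope GF_JAX libraries were lower than the positive-slope ones by a list median of -0.28.

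Among lipid droplet genes 8 of 18 fell and 1 rose, while in the slope-adjusted fit 1 fell and 0 rose (limma; 5 and 0 at an unadjusted p under 0.05). Cidec, which enlarges droplets by lipid exchange, had 2.01, 11.4, 1.11, 6.96 and 11.99 RPKM in GF_TAC, against 48.9, 21.96, 66.4 and 55.4 RPKM in TAC. It was far lower in every GF_TAC library, though the values spread widely in both groups (-2.91 ± 0.55, SE; adjusted p = 0.00258; slope-adjusted -2.37, adjusted p = 0.0195). In the Jackson pair it was lower too (6.94 ± 4.17 in GF_JAX against 106 ± 4.41 RPKM in JAX; -3.89, adjusted p = 7.52e-05), and GF averaged 4.25 ± 1.61 RPKM. Fitm2, which partitions fat into droplets, averaged 25.3 ± 5.44 in GF_TAC against 68.1 ± 11.2 RPKM in TAC (-1.41, adjusted p = 0.000309; slope-adjusted -0.51, adjusted p = 0.0715). Plin5, a droplet coat protein, averaged 124 ± 9.78 in GF_TAC against 194 ± 26.3 RPKM in TAC (-0.64, adjusted p = 0.000703; slope-adjusted -0.55, adjusted p = 0.0961). Plin2 (-0.33), Plin4 (-0.83) and the lipase inhibitor G0s2 (-0.59) fell in the 9 libraries. The riser was Plin3 (0.19). Several of these genes are also active in fat tissue, whose 7 listed markers summed to 63.5 to 142 RPKM in GF_TAC and 33.9 to 117 RPKM in TAC. Of the 4 tested markers 1 rose (Adrb3) and 0 fell (limma, also 0 at an unadjusted p under 0.05), and their part in the result was not tested.

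Of 20 lipoprotein genes 5 fell and 2 rose, against 18.1% lower and 17.6% higher over all genes tested. In the slope-adjusted fit 1 fell and 1 rose. After quantile normalization 13 fell and after the length correction 14, with 2 higher under both. The faller in both was Apoa4, an apolipoprotein of triglyceride-rich particles, with 149, 206, 146, 147 and 152 RPKM in GF_TAC, against 511, 450.1, 579 and 613 RPKM in TAC. No library of either group came near the other (-1.75 ± 0.12, SE; adjusted p = 3.78e-05; slope-adjusted -1.73, adjusted p = 0.000142), and the GF_JAX libraries of either slope differed by -0.012. It averaged 196 ± 45.2 RPKM in GF_JAX, 513 ± 91.9 in JAX and 129 ± 19.7 in GF, and was lower in GF_JAX than in JAX (-1.40, adjusted p = 0.00307). Apob, the backbone of VLDL, averaged 114 ± 10.6 in GF_TAC against 235 ± 29.8 RPKM in TAC (-1.04, adjusted p = 0.000154), but -0.35 in the slope-adjusted fit (adjusted p = 0.242) and -1.31 between the GF_JAX libraries of negative and positive slope. Its transcript has 13934 bases. Soat2, which esterifies cholesterol for lipoproteins, rose, with 63.4, 62.6, 58.3, 50.4 and 54.9 RPKM in GF_TAC, against 31.9, 23.7, 29.7 and 21.8 RPKM in TAC (1.10, adjusted p = 0.000198; slope-adjusted 1.09, adjusted p = 6.15e-05). In the Jackson pair it did not pass (41.3 ± 1.58 in GF_JAX against 44.1 ± 3.58 RPKM in JAX, -0.087), and the difference of differences passed (1.18, adjusted p = 0.000615). The hepatic lipase Lipc also rose (0.37; slope-adjusted adjusted p = 0.159).

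**Figure D5:**
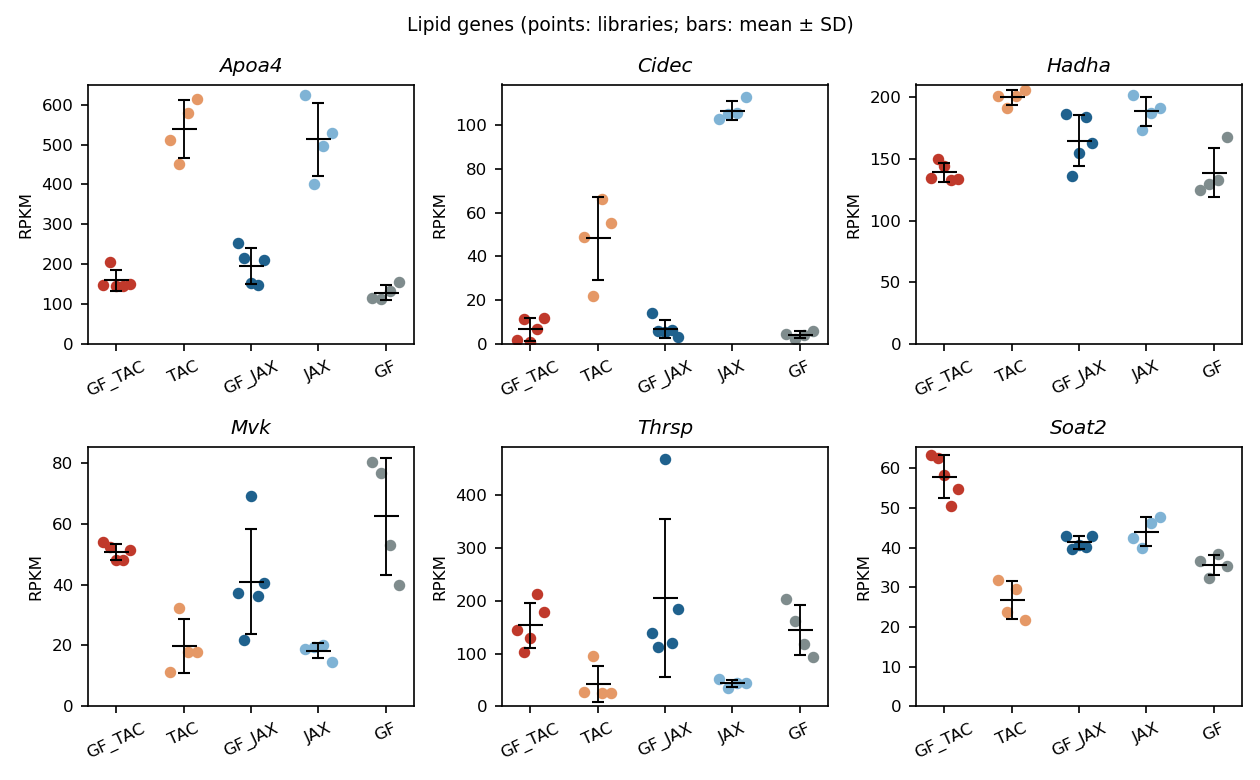
RPKM of 6 lipid genes in every library of the 5 groups, with group mean ± SD. Apoa4, Cidec and Hadha are lower and Mvk, Thrsp and Soat2 higher in every GF_TAC library than in every TAC library, with TAC replicate 2 (94.4 RPKM) apart from the other TAC libraries in Thrsp.

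Part of the cholesterol synthesis genes, targets of SREBP2, rose in GF_TAC livers. Of 23 tested members 10 rose and 1 fell (median 0.64), while the slope-adjusted fit called 1 higher and 0 lower (limma; 8 and 1 at an unadjusted p under 0.05) at a median of 0.48. Mvk, mevalonate kinase, had 53.9, 52.4, 47.97, 48.1 and 51.2 RPKM in GF_TAC, against 11.3, 32.4, 17.8 and 17.9 RPKM in TAC, where replicate 2 was highest (1.40, adjusted p = 0.00103; slope-adjusted 1.19, adjusted p = 0.0473). Dhcr7, of the last steps of the pathway, averaged 54.6 ± 5.002 in GF_TAC against 34.8 ± 3.86 RPKM in TAC (0.64, adjusted p = 0.000719; slope-adjusted 0.45, adjusted p = 0.477). The desaturase Sc5d averaged 161 ± 9.01 in GF_TAC against 113 ± 13.6 RPKM in TAC (0.51, adjusted p = 0.00119; slope-adjusted 0.41, adjusted p = 0.231). Nsdhl (1.66), Msmo1 (1.25), Fdps (1.18) and Cyp51 (1.08) rose further. The summed RPKM of the list was 1799 to 2068 in GF_TAC and 1147 to 2150.00 in TAC, so the ranges overlapped.

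Fatty acid synthesis genes did not move together. Of 17 tested 4 rose and 6 fell (1 and 2 in the slope-adjusted fit), and the list median of -0.16 became 0.079 under the slope term. The risers included regulators. Thrsp (Spot 14) had 145, 102, 130.3, 213 and 179 RPKM in GF_TAC, against 27.8, 94.4, 24.95 and 25.2 RPKM in TAC (2.02, adjusted p = 0.00207; slope-adjusted 1.32, adjusted p = 0.0793). TAC replicate 2 stood apart from the other TAC libraries. Srebf1, the master regulator of lipogenesis, was at 55.2 in GF_TAC against 23.6 RPKM in TAC (1.22). ChREBP (Mlxipl), which senses glucose, was at 77.5 in GF_TAC against 32.2 RPKM in TAC (1.23; slope-adjusted 1.04, adjusted p = 0.0174). The fallers were enzymes. Acacb, whose product malonyl-CoA restrains mitochondrial oxidation, averaged 7.12 ± 1.79 in GF_TAC against 23.9 ± 5.28 RPKM in TAC (-1.62, adjusted p = 0.000233; slope-adjusted -1.34, adjusted p = 0.0176). The elongase Elovl5 averaged 127 ± 7.87 in GF_TAC against 268 ± 39.5 RPKM in TAC (-1.06, adjusted p = 0.000154; slope-adjusted -0.87, adjusted p = 0.00769). The desaturase Fads2 averaged 169 ± 23.3 in GF_TAC against 308 ± 32.7 RPKM in TAC (-0.86, adjusted p = 0.000326; slope-adjusted adjusted p = 0.0987). Fasn did not pass (0.49, adjusted p = 0.0767).

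Genes of glucose production and amino acid breakdown, which are active in a fasted liver, fell more often than they rose in GF_TAC. Of 18 genes of gluconeogenesis and fasting 11 fell and 2 rose (3 and 1 in the slope-adjusted fit), with a median of -0.42. Pyruvate carboxylase (Pcx) averaged 175 ± 12.6 in GF_TAC against 301 ± 21.3 RPKM in TAC (-0.78, adjusted p = 0.000148; slope-adjusted -0.50, adjusted p = 0.0252). The aminotransferase Gpt2 averaged 168 ± 11.6 in GF_TAC against 261 ± 17.8 RPKM in TAC (-0.63, adjusted p = 0.000233; slope-adjusted -0.49, adjusted p = 0.0273). Pck1, the gatekeeper of glucose production, was at 511 in GF_TAC against 677 RPKM in TAC (-0.40, adjusted p = 0.00728). The insulin receptor substrate Irs2, which rises in fasting, fell with no overlap of libraries (5.998 ± 1.77 in GF_TAC against 20.4 ± 7.02 RPKM in TAC, -1.60, adjusted p = 0.000706), but did not pass the slope-adjusted fit (-0.87, adjusted p = 0.107). The mitochondrial Pck2 rose (4.25 in GF_TAC against 1.85 RPKM in TAC, 0.87; slope-adjusted 0.81, adjusted p = 0.0195).

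Of 28 genes of amino acid breakdown and the urea cycle 14 fell and 1 rose, while in the slope-adjusted fit 3 fell and 0 rose (limma; 12 and 0 at an unadjusted p under 0.05). Cps1, the entry enzyme of the urea cycle, had 224, 231, 258, 258 and 252 RPKM in GF_TAC, against 373, 414, 439 and 465 RPKM in TAC (-0.78, adjusted p = 0.000161). It did not pass the slope-adjusted fit (-0.47, adjusted p = 0.135), and the GF_JAX libraries differed by -0.76 between slopes. Slc25a15, the mitochondrial ornithine carrier, passed both (122 ± 9.95 in GF_TAC against 195 ± 18.1 RPKM in TAC; -0.66, adjusted p = 0.000344; slope-adjusted -0.49, adjusted p = 0.00938). The aspartate aminotransferase Got1 also passed both (173 in GF_TAC against 305 RPKM in TAC, -0.81). Kynureninase (Kynu) averaged 109 ± 6.08 in GF_TAC against 163 ± 19.3 RPKM in TAC (-0.57, adjusted p = 0.000706; slope-adjusted -0.38, adjusted p = 0.0797). Otc (0.061, adjusted p = 0.685) and Arg1 (-0.15, adjusted p = 0.254) did not pass. In the taurine and methionine cycle 6 of 14 fell (10 after quantile normalization) and 1 rose, and in the slope-adjusted fit 1 fell and 0 rose (limma; 6 and 1 at an unadjusted p under 0.05). Mat1a, which makes S-adenosylmethionine, averaged 445 ± 25.7 in GF_TAC against 632 ± 55.1 RPKM in TAC. The methyltransferase Bhmt2 averaged 151 ± 10.6 in GF_TAC against 213 ± 10.7 RPKM in TAC. In this order they had adjusted p of 0.000886 and 0.000561 in the 9 libraries and of 0.220 and 0.0670 in the slope-adjusted fit.

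Bile acid genes moved in both directions. Cyp7a1, which catalyses the first and limiting step from cholesterol to bile acids, had 24.2, 16.3, 19.3, 11.9 and 31.8 RPKM in GF_TAC, against 27.5, 36.2, 32.7 and 64.5 RPKM in TAC. The libraries overlapped (-0.92, adjusted p = 0.0260; slope-adjusted -1.01, adjusted p = 0.245), and the call was lost without TAC 4, GF_TAC 2 or GF_TAC 4 (adjusted p = 0.0512 to 0.0705). Cyp8b1, the sterol hydroxylase needed for cholic acid, averaged 346 ± 45.2 in GF_TAC against 463 ± 30.2 RPKM in TAC (-0.43, adjusted p = 0.00742; slope-adjusted -0.47, adjusted p = 0.121). Of 15 genes of synthesis 7 fell and 2 rose, and in the slope-adjusted fit 1 fell and 0 rose (limma; 4 and 2 at an unadjusted p under 0.05). Cyp2c70, which makes muricholic acids in mice, rose, with 182, 175, 229, 183 and 153 RPKM in GF_TAC, against 58.8, 165, 59.7 and 80.5 RPKM in TAC, with an overlap of libraries (1.13, adjusted p = 0.00712; slope-adjusted 0.77, adjusted p = 0.103). Akr1d1, a steroid reductase, rose as well (82.1 ± 13.8 in GF_TAC against 54.4 ± 3.58 RPKM in TAC; 0.57, adjusted p = 0.00309; slope-adjusted 0.65, adjusted p = 0.0668). Hsd17b4, of peroxisomal side chain shortening, fell (222 ± 6.24 in GF_TAC against 321 ± 14.01 RPKM in TAC; -0.53, adjusted p = 0.000197; slope-adjusted -0.45, adjusted p = 0.0320). Of 15 transporters and FXR targets 2 rose and 5 fell, and in the slope-adjusted fit 1 rose and 0 fell (limma; 2 and 1 at an unadjusted p under 0.05). The FXR target SHP (Nr0b2) rose (0.71, adjusted p = 0.00894). LRH-1 (Nr5a2), an activator of Cyp8b1, fell (12.8 ± 1.52 in GF_TAC against 22.9 ± 2.21 RPKM in TAC, -0.80) with a slope-adjusted value of -0.14 (adjusted p = 0.641). The uptake carrier Slc10a1 (0.024, adjusted p = 0.764) and the export pump Abcb11 (0.059, adjusted p = 0.447) did not pass. The phospholipid exporter Abcb4 (121 ± 8.80 in GF_TAC against 183 ± 23.7 RPKM in TAC) and the organic anion carrier Slco1a1 (72.5 ± 7.11 in GF_TAC against 100.4 ± 14.01 RPKM in TAC) fell in the 9 libraries, with slope-adjusted adjusted p of 0.0673 and 0.279.

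Many antigen presentation genes were higher in GF_TAC livers. Of 21 tested members 12 rose and 0 fell by limma (median 0.48), and 3 rose and 0 fell in the slope-adjusted fit. At an unadjusted p under 0.05 they were 13 and 0 in the 9 libraries and 11 and 0 in the slope-adjusted fit. The class II gene H2-Eb1 had 37.5, 46.3, 52.2, 57.9 and 38.002 RPKM in GF_TAC, against 24.7, 16.8, 28.1 and 19.3 RPKM in TAC (1.04, adjusted p = 0.00121; slope-adjusted 1.17, adjusted p = 0.00745). H2-Aa (57.1 in GF_TAC against 25.2 RPKM in TAC, 1.19; slope-adjusted 1.23, adjusted p = 0.0366) and the class II chaperone Cd74 (121 in GF_TAC against 67.5 RPKM in TAC, 0.85; slope-adjusted 0.82, adjusted p = 0.0401) passed in both fits. The immunoproteasome subunits Psmb8 (87.5 ± 11.4 in GF_TAC against 50.4 ± 5.31 RPKM in TAC) and Psmb10 (96.7 ± 12.3 in GF_TAC against 56.3 ± 10.2 RPKM in TAC) rose in the 9 libraries only, with slope-adjusted adjusted p of 0.112 and 0.193. The class I genes H2-K1 (-0.16, adjusted p = 0.147), H2-D1 (0.016, adjusted p = 0.898) and B2m (0.069, adjusted p = 0.607) did not pass.

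Some markers of immune cells were higher beside these genes, none of them in the slope-adjusted fit (limma), and in whole liver more cells of a type and more RNA per cell cannot be told apart. Of 12 Kupffer cell and macrophage markers 4 rose and 0 fell by limma (2 rose under TPM scaling or quantile normalization and 1 after the length correction), and none passed the slope-adjusted fit (5 and 0 at an unadjusted p under 0.05, and 3 and 0 in the slope-adjusted fit). Their summed RPKM was 269 to 438 in GF_TAC and 213 to 342 in TAC. Marco was at 5.93 in GF_TAC against 1.86 RPKM in TAC and Lyz2 at 49.8 in GF_TAC against 32.7 RPKM in TAC, while Clec4f (0.21) and Vsig4 (0.14) did not pass. Of 3 tested B and plasma cell markers 2 rose, Cd79a (5.70 in GF_TAC against 1.02 RPKM in TAC) and Cd79b (4.64 in GF_TAC against 1.18 RPKM in TAC), and the list summed to 5.96 to 41.5 RPKM in GF_TAC and 2.88 to 4.44 RPKM in TAC. Of 4 tested T and NK cell markers 1 rose, Ccl5 (5.79 in GF_TAC against 2.52 RPKM in TAC), with list sums of 10.9 to 16.8 in GF_TAC and 4.40 to 13.9 in TAC. Their part in the antigen presentation result was not tested.

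The other cell type lists moved as follows. Of 12 stellate cell and fibroblast markers 6 rose and 1 fell, and in the slope-adjusted fit 2 rose and 0 fell (limma; 4 and 0 at an unadjusted p under 0.05). Among them were Col3a1 at 7.36 in GF_TAC against 3.73 RPKM in TAC and Dcn at 112 in GF_TAC against 80.96 RPKM in TAC. The list summed to 334 to 430.3 RPKM in GF_TAC and 264 to 304 RPKM in TAC. Sinusoidal endothelial cells had 3 of 12 higher (Stab1, Stab2 and Dnase1l3), cholangiocytes 2 of 7 (Spp1 and Muc1), erythroid cells 2 of 3 (Klf1 and Epor), adipose tissue 1 of 4 (Adrb3) and pancreas and gut 1 of 3 (Cela1). Over all genes tested 17.6% were higher, and lists this short cannot be told apart from that share by their counts. Of these genes Stab2 (0.67, adjusted p = 0.01005) and Adrb3 (1.27, adjusted p = 0.0280) passed the slope-adjusted fit. No member of these lists fell by limma (at an unadjusted p under 0.05 1 endothelial marker and 0 of the others). None of 3 neutrophil and none of 1 skeletal muscle markers passed (0 and 1 at an unadjusted p under 0.05). Of the neutrophil markers Ltf and Camp, of the pancreas markers Prss1, Cpa1 and Amy2a5 and of the muscle markers Myh4 and Tnnt3 were listed at 0 in all 9 libraries. Of the hepatocyte markers 4 of 10 fell (Cps1, Hnf4a, Tat and Pck1) and none rose by limma, and none passed the slope-adjusted fit (0 higher at an unadjusted p under 0.05, and 4 lower in the slope-adjusted fit). The 4 became 8 after quantile normalization and 9 after the length correction, and under TPM scaling 6. Markers near the ceiling, such as Alb, also follow the depth of a library.

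Of 32 interferon response genes 8 rose and 1 fell, against 17.6% higher and 18.1% lower over all genes tested. None passed the slope-adjusted fit by limma (3 higher and 0 lower at an unadjusted p under 0.05). Rtp4 averaged 17.1 ± 2.08 in GF_TAC against 9.23 ± 1.90 RPKM in TAC (0.84, adjusted p = 0.00122; slope-adjusted 0.67, adjusted p = 0.0655). Ifi27l2a averaged 33.5 ± 9.12 in GF_TAC against 14.8 ± 4.51 RPKM in TAC (1.14, adjusted p = 0.00296; slope-adjusted 0.72, adjusted p = 0.338). Oas2, a sensor of double-stranded RNA, averaged 1.02 ± 0.304 in GF_TAC against 0.195 ± 0.171 RPKM in TAC (0.76, adjusted p = 0.00688; slope-adjusted 0.61, adjusted p = 0.145). Irf9 was the faller (-0.33). Isg15 (0.26, adjusted p = 0.158) did not pass. Of 15 genes of Toll-like receptor and lipopolysaccharide sensing 3 rose and 3 fell, shares near the 17.6% higher and 18.1% lower over all genes tested. Again none passed the slope-adjusted fit (1 higher and 3 lower at an unadjusted p under 0.05). MD-2 (Ly96), the partner of TLR4 in binding lipopolysaccharide, averaged 24.3 ± 2.68 in GF_TAC against 9.86 ± 2.71 RPKM in TAC (1.25, adjusted p = 0.000448). In the slope-adjusted fit it stood at 0.33 (adjusted p = 0.699), and the GF_JAX libraries of negative slope were 1.92 above those of positive slope. The adaptor Ticam1 (14.7 ± 0.717 in GF_TAC against 19.9 ± 1.01 RPKM in TAC) and the carrier Lbp (98.8 ± 11.2 in GF_TAC against 135 ± 8.65 RPKM in TAC) fell, with adjusted p of 0.00209 and 0.00285.

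The acute phase, the hepatic protein response to inflammation, had 6 of 29 genes lower, near the 18.1% lower over all genes tested, and 1 higher. None passed the slope-adjusted fit by limma (6 lower and 0 higher at an unadjusted p under 0.05). The lower genes were 10 under TPM scaling, 13 after quantile normalization and 14 after the length correction. Saa1 had 254, 458, 177, 299 and 251 RPKM in GF_TAC, against 157, 1040.00, 301 and 435 RPKM in TAC. TAC replicate 2 was far above the rest and the groups overlapped (-0.48, adjusted p = 0.420). Orm3 rose (28.2 ± 8.90 in GF_TAC against 8.68 ± 4.91 RPKM in TAC; 1.68, adjusted p = 0.00465; slope-adjusted 0.78, adjusted p = 0.489), but the GF_JAX libraries also differed by 1.68 between slopes. The interleukin-6 receptor Il6ra fell (19.6 ± 2.86 in GF_TAC against 33.7 ± 11.2 RPKM in TAC; -0.71, adjusted p = 0.0103) and reached 0.094 in the slope-adjusted fit (adjusted p = 0.891), and the metallothionein Mt2 was at 223 in GF_TAC against 421 RPKM in TAC (-1.03). Of 29 complement and coagulation genes 12 fell and 1 rose, and in the slope-adjusted fit 1 fell and 0 rose (limma; 8 and 1 at an unadjusted p under 0.05). C3, the hub of complement, averaged 388 ± 40.5 in GF_TAC against 601 ± 57.3 RPKM in TAC. The clotting factor F5 averaged 59.2 ± 2.64 in GF_TAC against 87.7 ± 9.73 RPKM in TAC and F9 averaged 71.6 ± 3.33 in GF_TAC against 100.2 ± 8.21 RPKM in TAC. In this order they had adjusted p of 0.000794, 0.000679 and 0.000706 in the 9 libraries and 0.221, 0.457 and 0.0332 in the slope-adjusted fit. F11 was the riser (0.57).

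Of 22 male-biased liver genes 1 rose and 2 fell (6 fell after quantile normalization, 7 after the length correction and 4 under TPM scaling), and none passed the slope-adjusted fit by limma (2 higher and 2 lower at an unadjusted p under 0.05). Hsd3b5, a male-specific steroid reductase, had 134, 132, 133, 118 and 53.1 RPKM in GF_TAC, with replicate 5 apart, against 27.97, 47.96, 25.1 and 14.04 RPKM in TAC (1.998, adjusted p = 0.00158; slope-adjusted 1.57, adjusted p = 0.0636). Cyp2f2 fell (349 ± 39.7 in GF_TAC against 457 ± 49.6 RPKM in TAC, adjusted p = 0.0120). In GF_JAX against JAX 10 of the 22 rose and 0 fell (17 and 0 at an unadjusted p under 0.05), and 5 passed the difference of differences, all negative. The 10 became 6 without a filter, under TPM scaling or with the replicate block, 2 with depth as a covariate and 16 in the fit of 22 libraries, and were 5, 4 and 3 without JAX 1, 3 and 4. The 5 became 13 after the length correction, 12 with the slope as a covariate, 11 without GF_JAX 2, 3 without JAX 3, TAC 2 or TAC 3 and 2 without JAX 4. Mup12, a major urinary protein with near-identical copies, was at 60.8 ± 14.7 in GF_TAC against 59.8 ± 7.01 RPKM in TAC. In the Jackson pair it was at 86.4 ± 18.5 in GF_JAX against 24.7 ± 2.94 RPKM in JAX (difference of differences -1.75, adjusted p = 0.00147). Of 8 tested female-biased genes 2 rose and 2 fell, against 17.6% higher and 18.1% lower over all genes tested. The 2 higher became 1 under TPM scaling or after the length correction and 0 after quantile normalization, while 2 fell under each. The risers were Cyp3a44 (1.93 ± 1.26 in GF_TAC against 0.362 ± 0.247 RPKM in TAC) and Cyp2a4 (1.75 in GF_TAC against 0.844 RPKM in TAC). The 2 that fell were Cyp17a1 (27.5 ± 13.9 in GF_TAC against 54.6 ± 15.98 RPKM in TAC) and Cyp4a14 (338 ± 69.6 in GF_TAC against 561 ± 99.7 RPKM in TAC). Cyp17a1 had no call without TAC 1 or 4 or GF_TAC 1, 3 or 4 (adjusted p = 0.0537 to 0.0707). None of the 8 passed the slope-adjusted fit by limma (2 higher and 0 lower at an unadjusted p under 0.05). In the growth hormone axis 1 of 13 rose and 3 fell, against 17.6% higher and 18.1% lower over all genes tested. In the slope-adjusted fit 2 rose (Stat5a and Stat5b) and 0 fell (limma; 1 lower at an unadjusted p under 0.05). Stat5a averaged 10.1 ± 0.742 in GF_TAC against 6.76 ± 1.15 RPKM in TAC (0.53, adjusted p = 0.00547; slope-adjusted 0.57, adjusted p = 0.0432). Bcl6, a repressor of its targets, averaged 19.01 ± 4.58 in GF_TAC against 37.5 ± 13.9 RPKM in TAC and fell, as did Jak2 (-0.38). Igfbp1 fell as well (216 ± 32.99 in GF_TAC against 315 ± 70.7 RPKM in TAC), with no call without TAC 2, 3 or 4 or GF_TAC 4 or 5 (adjusted p = 0.0541 to 0.0793).

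Clock genes were partly lower in the 9 libraries. The list median of -0.30 became -0.016 under the slope term, and it was -0.33 between the GF_JAX libraries of negative and positive slope. Of 18 tested 6 fell and 1 rose, in the slope-adjusted fit 2 fell and 0 rose (limma; 3 and 3 at an unadjusted p under 0.05), and no hour of sampling is given in the labels. The repressor Cry1 averaged 8.26 ± 1.32 in GF_TAC against 20.7 ± 2.86 RPKM in TAC (-1.23, adjusted p = 0.000198; slope-adjusted -0.83, adjusted p = 0.0432). The activator Arntl (BMAL1) averaged 11.7 ± 1.39 in GF_TAC against 19.6 ± 1.69 RPKM in TAC (-0.69, adjusted p = 0.000717; slope-adjusted adjusted p = 0.186). Per1 averaged 15.1 ± 2.05 in GF_TAC against 24.2 ± 3.46 RPKM in TAC (-0.65, adjusted p = 0.00253; slope-adjusted adjusted p = 0.550). The riser was REV-ERBα (Nr1d1, 57.3 in GF_TAC against 23.7 RPKM in TAC, 1.35), which represses Arntl. Of 16 iron genes 3 rose and 3 fell, shares near the 17.6% higher and 18.1% lower over all genes tested. After quantile normalization 6 fell, and in the slope-adjusted fit 2 rose and 0 fell (5 and 1 at an unadjusted p under 0.05). Hamp2, a paralog of the iron hormone hepcidin, had 215, 186, 209.9, 186 and 293 RPKM in GF_TAC, against 97.7, 59.9, 38.3 and 57.8 RPKM in TAC (1.82, adjusted p = 0.000353; slope-adjusted 1.29, adjusted p = 0.0486). Hamp itself, near the ceiling, was at 1033 ± 156 in GF_TAC against 999 ± 135 RPKM in TAC. The BMP target Id1 (74.5 in GF_TAC against 26.3 RPKM in TAC, 1.49) and hemojuvelin (Hfe2, 102 ± 4.60 in GF_TAC against 81.7 ± 6.14 RPKM in TAC, 0.32) rose, and Tmprss6 (223 ± 13.8 in GF_TAC against 272 ± 12.8 RPKM in TAC), Tfrc (-0.62) and Cp (-0.23) fell. Of 14 cell cycle genes 3 rose, a share near the 17.6% higher over all genes tested (1 rose and 3 fell after quantile normalization). The 3 risers, all low, were Tyms (6.53 ± 0.693 in GF_TAC against 4.35 ± 0.440 RPKM in TAC), Ccna2 (2.31 in GF_TAC against 1.16 RPKM in TAC) and Ccnb2 (1.37 ± 0.459 in GF_TAC against 0.471 ± 0.175 RPKM in TAC). The 1 that fell was the inhibitor Cdkn1a (72.2 ± 14.05 in GF_TAC against 154 ± 22.1 RPKM in TAC; -1.09, adjusted p = 0.000352), and none passed the slope-adjusted fit (1 higher and 1 lower at an unadjusted p under 0.05). Of 13 immediate early genes 1 rose and 2 fell, against 17.6% higher and 18.1% lower over all genes tested. Ier2 rose (90.7 ± 6.34 in GF_TAC against 61.9 ± 17.5 RPKM in TAC), and Jun (40.4 ± 5.04 in GF_TAC against 50.2 ± 6.14 RPKM in TAC) and Jund (106 ± 9.37 in GF_TAC against 125 ± 8.75 RPKM in TAC) fell. The Jun call was lost without any one of TAC 2, 3 and 4 and GF_TAC 3, 4 and 5, and the Jund call without TAC 2, 3 or 4 or GF_TAC 2, 3, 4 or 5 (adjusted p = 0.0549 to 0.103 over both). None of the list was called in the slope-adjusted fit (0 higher and 1 lower at an unadjusted p under 0.05).

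Ribosomal protein and respiratory chain genes, short transcripts kept as signs of RNA quality, took a direction that depended on the handling of length. None of 30 ribosomal protein genes passed by limma (1 higher and 0 lower at an unadjusted p under 0.05; median 0.10), yet 16 rose after quantile normalization and 17 fell after the length correction, and the median was -0.24 in the slope-adjusted fit. Of 30 respiratory chain genes 1 rose (Ndufb2, 437 ± 53.03 in GF_TAC against 356 ± 24.98 RPKM in TAC) and 2 fell (Sdha, 204 ± 10.3 in GF_TAC against 247 ± 3.24 RPKM in TAC, and Atp5b, 436 ± 35.5 in GF_TAC against 510.1 ± 39.5 RPKM in TAC). After quantile normalization 12 rose and 2 fell, and after the length correction 1 rose and 16 fell. Ndufb2 had no call without TAC 1, 3 or 4 or GF_TAC 1, 3 or 4 and Atp5b none without TAC 2, 3 or 4 or GF_TAC 1, 2 or 5 (adjusted p = 0.0661 to 0.101 over both). The list had a median of 0.10 that became -0.26 under the slope term.

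Genes that differ between C57BL/6 substrains differed between the groups. Entpd4 had 35.7, 32.9, 35.7, 33.9 and 35.3 RPKM in GF_TAC, against 21.5, 21.1, 23.3 and 21.5 RPKM in TAC (0.64, adjusted p = 0.000161; slope-adjusted 0.72, adjusted p = 0.00709), and the spread within either group was small. Wdfy1, an endosomal adaptor, had 8.56, 7.57, 13.7, 6.71 and 11.1 RPKM in GF_TAC, against 27.6, 15.2, 26.2 and 26.6 RPKM in TAC (-1.25, adjusted p = 0.00179; slope-adjusted -1.03, adjusted p = 0.0373). Nnt, a mitochondrial transhydrogenase that carries a deletion in the Jackson substrain C57BL/6J, had 59.9, 63.3, 56.4, 55.7 and 64.3 RPKM in GF_TAC, against 84.7, 69.97, 89.8 and 84.3 RPKM in TAC (-0.45, adjusted p = 0.00226), but -0.069 in the slope-adjusted fit (adjusted p = 0.624). Entpd4 averaged 34.7 ± 1.25 RPKM in GF_TAC, 21.9 ± 0.959 in TAC, 40.4 ± 5.33 in GF_JAX, 39.99 ± 5.64 in JAX and 32.3 ± 6.57 in GF. Wdfy1 averaged 9.53 ± 2.86 RPKM in GF_TAC, 23.9 ± 5.85 in TAC, 10.99 ± 3.77 in GF_JAX, 7.74 ± 2.05 in JAX and 8.72 ± 1.45 in GF. For both genes the 3 groups of germ-free origin lay near JAX and TAC lay apart. The inflammasome-related Nlrp12 fell as well (-0.35). Nnt averaged 59.9 ± 3.91 RPKM in GF_TAC, 82.2 ± 8.52 in TAC, 67.4 ± 17.4 in GF_JAX, 42.7 ± 1.10 in JAX and 57.04 ± 3.40 in GF, with TAC highest and JAX lowest. The difference of differences passed for Entpd4 (0.63, adjusted p = 0.0322), Wdfy1 (-1.68, adjusted p = 0.0155) and Nnt (-1.06, adjusted p = 0.00927). Host substrain and colonisation cannot be told apart in this comparison.

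Several of the largest differences in the 9 libraries were of similar size to those between the GF_JAX libraries of negative and of positive slope. Tgoln2, a Golgi membrane protein, was listed at 0, 0.00598, 0, 0 and 0.00421 RPKM in GF_TAC, against 61.9, 25.2, 55.2 and 68.6 RPKM in TAC (-5.65, adjusted p = 5.60e-07). The negative-slope GF_JAX libraries were lower than the positive-slope ones by a difference of -4.90. Its slope-adjusted difference was -2.98 (adjusted p = 0.00769). Abhd2, a hydrolase, averaged 4.15 ± 1.32 in GF_TAC against 45.98 ± 23.3 RPKM in TAC (-3.04, against -2.67 between the GF_JAX libraries of negative and positive slope). Megf9 averaged 0.986 ± 0.382 in GF_TAC against 7.78 ± 3.51 RPKM in TAC (-2.08 and -2.56), and Pdpr, a regulator of pyruvate dehydrogenase, 1.23 ± 0.694 in GF_TAC against 8.07 ± 3.37 RPKM in TAC (-1.99 and -2.60). Acss3, a propionyl-CoA synthetase, averaged 4.54 ± 1.69 in GF_TAC against 21.005 ± 7.56 RPKM in TAC (-1.98 and -2.01), and Sntb1, a syntrophin, 16.01 ± 3.75 in GF_TAC against 65.7 ± 15.5 RPKM in TAC (-1.97 and -2.16). Of these 5 only Abhd2 passed the slope-adjusted fit (-1.28, adjusted p = 0.00462). Rsc1a1, which lies within another gene, was listed at 0 in all 4 TAC libraries and had 42.98, 28.2, 46.9, 43.8 and 31.03 RPKM in GF_TAC. In GF_JAX it had 0, 40.5, 17.4, 0 and 44.96 RPKM in replicates 1 to 5, so that the positive-slope replicates 1 and 4 were at 0, and it passed the slope-adjusted fit (2.56, adjusted p = 0.0356). Mir8112 (202 ± 90.2 in GF_TAC against 758 ± 210.2 RPKM in TAC) and Snora81 (81.6 ± 29.6 in GF_TAC against 17.5 ± 20.2 RPKM in TAC) are small RNAs that a poly(A) library does not capture as such. Neither passed the slope-adjusted fit (adjusted p = 0.584 and 0.0923; Snora81 also had no call without TAC 4, adjusted p = 0.0591). Among the other large increases, the peptide hormone Insl3 averaged 7.75 ± 1.97 in GF_TAC against 0.334 ± 0.657 RPKM in TAC (slope-adjusted 2.74, adjusted p = 0.0135). The calcium-binding S100a6 averaged 12.8 ± 6.65 in GF_TAC against 1.42 ± 0.730 RPKM in TAC (slope-adjusted 1.77, adjusted p = 0.0493), and Lect1, chondromodulin, 11.3 ± 3.01 in GF_TAC against 1.51 ± 0.869 RPKM in TAC (slope-adjusted 2.06, adjusted p = 0.00129). Cyb5d1 fell in both (8.31 ± 3.15 in GF_TAC against 34.9 ± 4.44 RPKM in TAC; -1.998, adjusted p = 0.000195; slope-adjusted -1.33, adjusted p = 0.00892).

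The Jackson pair gives the same contrast in libraries that the Taconic pair does not use. In GF_JAX against JAX 507 of the 11625 genes passed (4.36%), 268 higher and 239 lower. TPM scaling gave 176 higher and 620 lower at a median of -0.22 over all genes, against -0.019 without it, and relative depth as a covariate left 15 genes. Of the 4154 genes called in the Taconic pair 82.0% had the same sign in the Jackson pair, against 69.5% of all genes tested. All JAX libraries had length slopes above 0 (0.056 to 0.147), while GF_JAX 2, 3 and 5 lay below 0. The part of the slope in this shared direction was not tested. Called in both pairs were 252 genes, which are 6.07% of the Taconic and 49.7% of the Jackson calls, of which 132 were higher and 111 lower in both and 9 had opposite signs. Among the genes described, Cyp2b10, Cyp2c55, Cyp2c53-ps, Cyp2c54, Cyp2c70, Cyp1a1, Cyp1a2, Gstm2, Gstm3, Hsd3b5, Lect1, Thrsp, Mvk, Orm3, H2-Eb1 and Hamp2 rose and Apoa4, Cidec, Hspa1b, Elovl5 and Acacb fell in both pairs. The difference of differences passed for 196 genes (1.69%), 60 higher and 136 lower, and 2068 had an unadjusted p under 0.05. TPM scaling turned this split to 250 higher and 113 lower, with the median of all genes at 0.18 instead of 0.011. Beside the genes already described, the difference of differences passed for Rtp4 (1.14, adjusted p = 0.0140), Stat5a (0.80, adjusted p = 0.0335), Slc25a15 (-0.79, adjusted p = 0.0101), Cyb5d1 (-1.31, adjusted p = 0.0496) and Saa1 (-2.64, adjusted p = 0.0411). With each of 18 libraries left out in turn, Cyb5d1 lost its call in 14, Saa1 in 13, Stat5a in 11 and Entpd4 in 8 fits, with adjusted p of up to 0.101, and the other 12 genes named for this difference lost none. Of these 12, 6 were chosen by their smallest p in this same difference, so their kept calls are no further support.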

How the data were processed

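The values are RPKM per gene that the authors deposited for 22 libraries, made with Bowtie 1.0.0, Cuffdiff 2.1.1 and mm9 per the submitters' processing notes; per the labels' protocols, poly(A) RNA was taken from Trizol extracts and amplified with a ThruPLEX kit. Whether replicates were pooled or strand was used is not given in the sources used here. Of 24397 entries, 461 without a name and 27 turned into dates were left out. Genes that reached 1 RPKM in 4 or more of the 9 libraries were tested on log2(RPKM + 1) with limma 3.58.1 (R 4.3.3; intensity trend, two-sided, Benjamini-Hochberg over all genes tested, threshold 0.05); each fold change is on that scale. Of these genes 95.5% had a transcript length, taken from another build and used without coordinates. Depth was estimated from the steps of low values, where 84.1% of 5332 low genes were within 0.02 reads of whole reads in all libraries; since RPKM are not counts, no count test was run. The same replicate numbers did not pair the samples (the check is given with the block result). The genes described were the 10 largest increases and decreases without overlap and at a mean of at least 5 RPKM (without predicted genes and Mup), up to 3 genes of smallest adjusted p in each of 31 pathway lists, 6 of the difference of differences and a few fixed ones, 108 in all; other list members were named as examples after their values were seen. Some genes are left out of the text and are not reported here. The members and lists were chosen with earlier results of these data known. The limma step was tested on simulated data. Alternatives were other pseudocounts, filters, scalings, length handling, covariates and weights, a replicate block and leaving out each library.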

Additional observations from a re-analysis of the deposited data

Results flagged for a closer look

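Of 214 groups of libraries checked, 15 had one library apart from the rest of its group, where chance gives about 1 in 20. In RPKM, the libraries above the rest were GF_TAC 1 for Hspa1b (29.9, others 7.64 to 11.7), GF_TAC 2 for Fads2 (209.6, others 152 to 168), Pcx (197.4, others 167 to 174.5) and Apoa4 (206.0, others 146 to 152), and GF_TAC 5 for Ifi27l2a (49.5, others 27.2 to 32.1), Hamp2 (293.4, others 186 to 214.5) and Hfe2 (110.5, others 99.7 to 102). Among TAC libraries the ones above the rest were TAC 1 for Insl3 (1.32, others 0 to 0.012), TAC 2 for Thrsp (94.4, others 24.9 to 27.8), TAC 3 for Il6ra (50.3, others 26.7 to 30.2) and Plin5 (233.7, others 178 to 183), and TAC 4 for Cyp3a44 (0.73, others 0.212 to 0.279). Below the rest were GF_TAC 5 for Hsd3b5 (53.1, others 118 to 134), TAC 3 for Ticam1 (18.4, others 20.3 to 20.5) and TAC 2 for Wdfy1 (15.2, others 26.2 to 27.6).

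In 16 of the 108 genes chosen for description the difference between recipients and conventional mice itself differed between the Taconic and the Jackson pair, by limma over 18 libraries at an adjusted p under 0.05. Over all genes tested 1.69% passed. Since 6 of the 108 were chosen by their smallest p in this difference, the count of 16 is raised by the choice. The difference of differences was negative for Saa1 (-2.64), Hyou1 (-1.89), Mup12 (-1.75), Hsph1 (-1.70), Wdfy1 (-1.68), Cyb5d1 (-1.31), Hspa5 (-1.24), Chordc1 (-1.20), Pdia4 (-1.16), Nnt (-1.06), Hsp90b1 (-1.02) and Slc25a15 (-0.79), and positive for Soat2 (1.18), Rtp4 (1.14), Stat5a (0.80) and Entpd4 (0.63).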

How the results depend on the processing

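The counts of 2045 higher and 2109 lower genes were within 1.5 times under every alternative run other than the length slope as a term over 22 libraries (227 higher and 271 lower), and ran from 1566 to 2070 higher and from 1659 to 2185 lower with 1 library left out, 2759 genes being called in each of those fits. The replicate numbers did not pair the samples (correlations of same-numbered deviations of 0.019, 0.017, -0.10 and 0.092, and 0 of 4 TAC libraries correlating best with their own number); with the replicate block 1552 genes were higher and 1532 lower, and this block left 158 genes in the Jackson pair and 111 in the difference of differences. Sesn2 (0.0054), Il6ra (0.094) and Ndufb2 (-0.18) took the other sign under the slope term, none past the threshold. Of the single-gene values under alternatives 2201 kept direction and call, 162 kept direction only and 3 reversed. The 507 Jackson calls, whose alternatives were chosen after seeing the data, became 796 under TPM scaling, 1657 in the fit of 22 libraries, 1171 with its slope term, 15 with depth as a covariate and 1267 with quality weights, and ran from 118 (without JAX 4) to 627 with 1 library left out, falling more than 1.5-fold without JAX 1 (138), JAX 2 (227), JAX 3 (151) or GF_JAX 5 (278). The 196 differences of differences became 120 without a filter, 363 under TPM scaling, 100 under quantile normalization, 739 after length correction and 829 with the slope as a covariate, and ran from 78 (without JAX 3) to 486 (without GF_JAX 2), with other moves of over 1.5 times without GF_JAX 5 (302), JAX 4 (79), TAC 2, 3 or 4 (86, 108 and 104) or GF_TAC 1 to 5 (95, 107, 124, 128 and 100). Depth as a covariate was not run for the difference of differences. The length slope difference was -0.22 to -0.181 with 1 library left out, also run after seeing the data. The cause was not tested for any of these changes. Of the list results under alternatives 1548 stayed and 344 moved. Depths of 1850000 to 3040000 reads limit low genes, and the ceiling limits the most abundant ones.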
